A study of Homo sapiens with 6 samples.

Results

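Notch signalling in these cells was followed through 10 genes: the receptors NOTCH1, NOTCH2 and NOTCH3, the ligands JAG1 and JAG2, the target genes HES1 and HEY1, and the Deltex genes DTX2, DTX3 and DTX4. They are 10 of the 58735 genes in the deposited table, and 9 were expressed highly enough to enter the test with 13832 genes in all. The set was chosen by gene name after the difference in DTX4 between ACAT2-knockdown and control cells had been seen. The values of the 10 genes in that contrast are therefore given as a description, with no test of them. Where they are counted by the adjusted p of the fit over all genes, that count is a description too. The question was whether the receptors, the ligands and the HES/HEY targets moved together with DTX4.

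HGC-27 is an established line from an undifferentiated human stomach carcinoma. The cells carried either pSIH-H1-Puro-shACAT2, which expresses a short hairpin RNA against the ACAT2 thiolase (genotype label ACAT2 knockdown), or the control vector pSIH-H1-Puro-shNC (genotype label WT). Both groups were exposed to their vector for 24 h and then kept under puromycin for 7 days, so both carry a vector and a selected resistance gene. Total RNA was sequenced as 3 libraries per group, shNC-1 to shNC-3 and shACAT2-1 to shACAT2-3. The study made stable populations from 2 hairpins, shACAT2#1 and shACAT2#2, and the labels do not say which one these libraries carried, so an effect of ACAT2 and an off-target effect of the hairpin cannot be told apart.

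Notch receptors are cut at the membrane once a Jagged or Delta-like ligand on a neighbouring cell engages them, and the freed intracellular domain enters the nucleus. There it joins the DNA-binding protein RBPJ and a Mastermind coactivator and switches on several HES and HEY genes, which encode basic helix-loop-helix repressors. Deltex proteins are RING-type E3 ubiquitin ligases, several of which bind the intracellular part of the receptor and act on its trafficking and turnover.

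RBPJ recognises a short motif with the core GTGGGAA, and the promoter windows of RefSeq (GRCh38.p14, 250 bases before to 50 bases after each gene's start) were searched for GTGGGAA and for the shorter TGGGAA, which it contains, on both strands. GTGGGAA was present in 6.25% and TGGGAA in 24.0% of all 35116 windows. Of the 24 receptors, canonical ligands, Deltex genes, HES/HEY genes and NRARP, 19 had a window searched, 8 of the 10 chosen genes among them. HEY1 and DTX3 were not searched, so nothing is read about their promoters. GTGGGAA was found in 5 of the 19, and these were 5 of the 8 HES/HEY genes searched (HES1, HES4, HES5, HEY2 and HEYL). The windows of NOTCH1, NOTCH2, NOTCH3, JAG1, JAG2 and both windows of DTX4, which has a second RefSeq start, held neither form, and that of DTX2 held TGGGAA on its reverse strand 59 bases before the start. The stretches below are shown because HES1 carries a pair of matches on 1 strand, HEY2 carries the reverse complement in the stretch shown and a forward GTGGGAA 4 bases before its start that is not printed, and DTX4, whose difference was the largest of the 10 genes, carries none in the same stretch. Capitals mark the matches. HES1 is read from its plus strand at chr3:194136048-194136107, from 100 to 41 bases before its start. HEY2 is read from its plus strand at chr6:125749402-125749461, from 230 to 171 bases before its RefSeq start, a stretch that lies in an intron of a longer HEY2 transcript in GENCODE release 29. DTX4 is read from its plus strand at chr11:59171330-59171389, from 100 to 41 bases before its start, and like the HES1 stretch it overlaps no gene of that release. A match is a string of letters and not a measured binding site.
HES1: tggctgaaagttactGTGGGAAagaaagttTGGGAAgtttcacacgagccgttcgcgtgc
HEY2: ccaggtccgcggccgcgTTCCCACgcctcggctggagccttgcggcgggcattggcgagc
DTX4: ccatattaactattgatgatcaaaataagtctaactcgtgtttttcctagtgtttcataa

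The libraries held 14086416 to 16067486 fragments on genes, recovered from the FPKM values (fragments per kilobase of exon length, scaled by a size per library that the authors set). For shACAT2-1 that size, recovered as 15182806, was below its 15867286 fragments on genes, and in every other library it was above them. ACAT2 itself was 12.9 ± 1.25 FPKM in shNC against 5.90 ± 0.388 in shACAT2 cells (SD over 3 libraries), with a log2 fold change of −1.01 (SE 0.10, adjusted p = 0.0059 by limma), so the libraries follow their labels. The libraries shNC-2 and shNC-3 differed by a chi-square of 1.73 per gene, where the 5 other replicate pairs gave 12.1 to 46.0, and whether they are separate cultures is not stated, so n counts libraries and the p-values measure the spread between libraries only. In shACAT2-3, 7230 autosomal genes had fragments that had none in the 5 other libraries. The level over those genes and the autosomal genes silent in all libraries was 0.778 fragments per kilobase, against 0.0508 to 0.0809 in the other libraries. Of the defining markers, 0 of 8 gastric and 0 of 5 epithelial genes reached a mean of 1 FPKM in either group (TFF1, GKN1 and PGC were at 0 in every library), so the deposited values do not show a gastric epithelial profile. Of 3 mesenchymal markers, VIM and FN1 reached it and CDH2 did not, at 0.0808 FPKM or less. Both marker sums differed between the groups without overlap. The 5 epithelial markers summed to 0.505 to 0.830 FPKM in shNC and 1.44 to 2.22 FPKM in shACAT2 libraries, mostly through CDH1 (means of 0.161 and 0.863 FPKM), and the 3 mesenchymal markers to 247.9 to 294.3 and 342.7 to 463.1 FPKM, mostly through VIM (means of 263.0 and 406.1 FPKM, adjusted p = 0.0634 by limma). The part of these markers in the Notch values was not tested. The summed endothelial, leukocyte and erythroid markers stayed at or below 0.373 FPKM, and their highest sums were in shACAT2-3. In bulk RNA, fewer cells with a transcript and less transcript per cell cannot be told apart.

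DTX4 (ENSG00000110042, chromosome 11 of GRCh38 from 59171430 to 59208587, plus strand) encodes a Deltex ligase. Its level was 2.04, 1.96 and 2.00 FPKM in the shNC libraries against 6.74, 7.25 and 5.69 FPKM in shACAT2-1 to shACAT2-3 (190 to 732 fragments). All 3 shACAT2 libraries lay far above the 3 shNC libraries, which differed little among themselves. The means were 2.00 ± 0.0422 and 6.56 ± 0.799 FPKM (SD over 3 libraries), a ratio of 3.28, and the log2 fold change on log2(FPKM + 1) was 1.33 (standard error, SE, 0.10). Fold changes on this scale understate those of genes with low values, and with a pseudocount of 0.1 the log2 fold change was 1.66. By log2 fold change DTX4 stood at rank 49 of the 13832 genes tested. The background of shACAT2-3 would account for 0.912% of the 518 fragments of DTX4 in that library. MPEG1, on the opposite strand, covers 78 bases or 1.28% of the DTX4 exons, and the strand setting of the counting is not given in the sources used here.

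DTX2 (ENSG00000091073), a close relative that also binds Notch, did not show that separation. It stood at 3.10, 2.21 and 2.63 FPKM in the shNC and at 4.08, 2.55 and 2.10 FPKM in the shACAT2 libraries. The groups overlapped, with the highest and the lowest value both in shACAT2 libraries, and the log2 fold change was 0.075 (SE 0.20). Near-identical copies of DTX2 (DTX2P1 and its read-through) were at or below 0.122 FPKM, and how fragments were split between them is not stated. DTX3 (ENSG00000178498), whose protein lacks the WWE domains of DTX1, DTX2 and DTX4, was close to silent at 0, 0.030 and 0 FPKM in the shNC and 0.064, 0 and 0.016 FPKM in the shACAT2 libraries. It was below the limit of 1 FPKM for testing, and the 1 fragment in shACAT2-3 is under the 3.18 fragments that the background of that library gives for its length. DTX1 was at most 0.106 FPKM in any library and was not tested either.

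DTX3L, the Deltex member that pairs with PARP9 in the DNA damage and interferon response, lay on the other side of 0. Its values were 2.19, 2.34 and 2.09 FPKM in the shNC and 1.14, 1.44 and 1.51 FPKM in the shACAT2 libraries, with no overlap. The log2 fold change was −0.44 (SE 0.11, adjusted p = 0.0733 by limma), short of the threshold of 0.05, and it passed that threshold in 2 of 14 alternatives. As a share of the FPKM of the 5 Deltex genes, DTX4 took 29.1% ± 1.09 in shNC and 60.3% ± 4.24 in shACAT2 cells (SD over 3 libraries), so the most abundant Deltex transcript was DTX2 or DTX3L in the control and DTX4 in the knockdown libraries. The summed FPKM of the 5 genes was 6.88 ± 0.406 and 10.9 ± 1.33 (SD over 3 libraries), without overlap between the groups. This sum includes DTX4, on which the set was chosen and whose own mean went from 2.00 to 6.56 FPKM. Nothing about the other Deltex genes is therefore read from the sum.

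**Figure D1:**
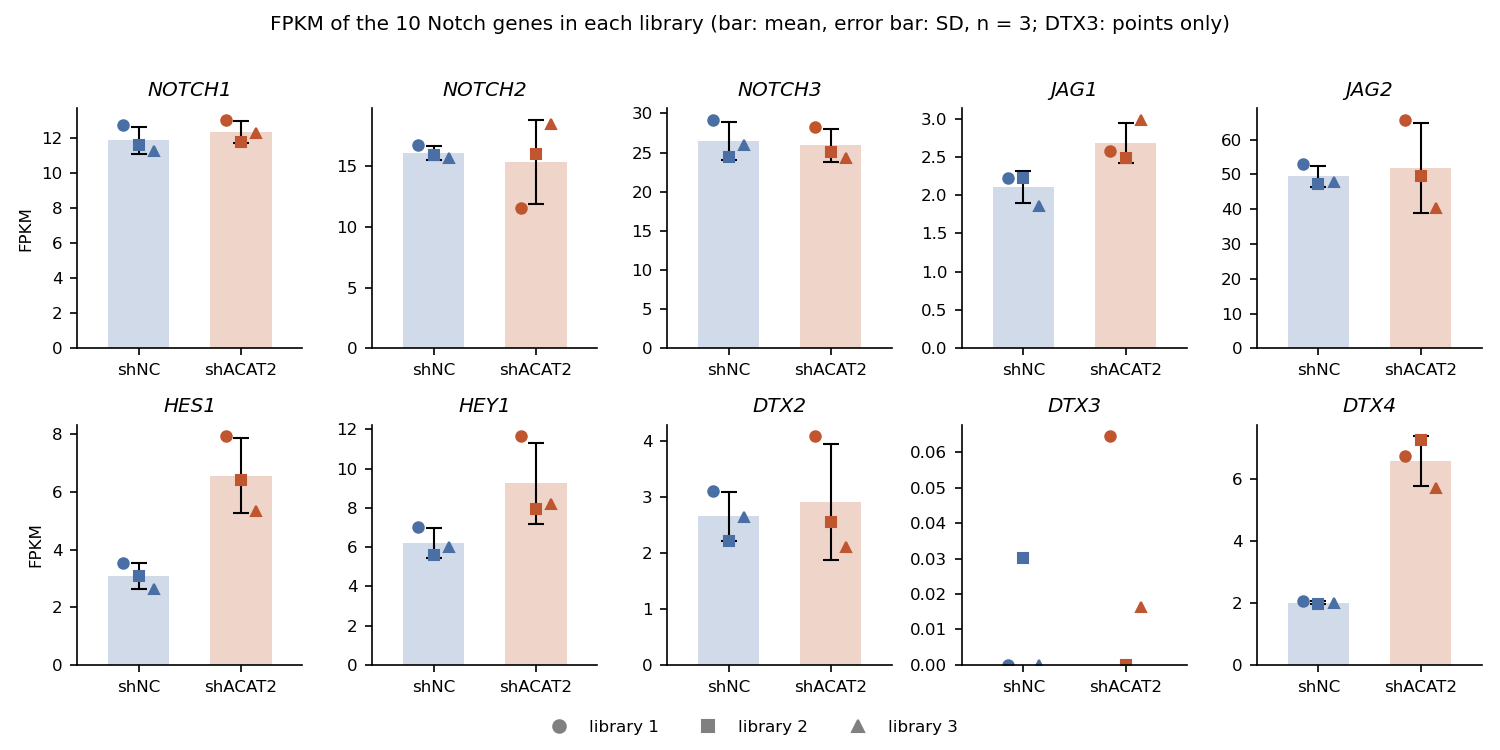
FPKM of each of the 10 Notch genes in the 3 shNC (blue) and 3 shACAT2 (orange) libraries, with 1 panel and 1 linear axis from 0 per gene, the bar at the mean and the error bar at 1 SD (DTX3 as points only). DTX4, HES1, HEY1 and JAG1 have every shACAT2 library above every shNC library, while the groups of NOTCH1, NOTCH2, NOTCH3, JAG2, DTX2 and DTX3 overlap.

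The 3 chosen receptors were well expressed, and their means differed little between the groups. NOTCH3 (ENSG00000074181) was the most abundant receptor transcript per length, at 29.2, 24.4 and 25.9 FPKM in the shNC and 28.3, 25.1 and 24.3 FPKM in the shACAT2 libraries. NOTCH1 (ENSG00000148400) was at 12.7, 11.6 and 11.2 FPKM in the shNC and at 13.0, 11.8 and 12.2 FPKM in the shACAT2 libraries. For both genes the groups overlapped, and the log2 fold changes were −0.030 (SE 0.11) for NOTCH3 and 0.054 (SE 0.094) for NOTCH1. NOTCH2 (ENSG00000134250) ran from 15.6 to 16.7 FPKM in the shNC libraries but from 11.6 in shACAT2-1 to 18.4 FPKM in shACAT2-3. The shACAT2 libraries thus stood on both sides of all 3 shNC libraries, and the log2 fold change was −0.087 (SE 0.16). Of the stretches of 50 bases in NOTCH2 transcripts, 20.9% also occur in NOTCH2NLA (0.112 to 0.372 FPKM) and 2.21% in NBPF26 (2.49 to 4.45 FPKM), so the NOTCH2 level is uncertain by what the counting assigned to these copies. NOTCH4, mainly known from endothelium, was at most 0.123 FPKM and was not tested. The 4 receptors summed to 54.5 ± 3.62 FPKM in shNC against 53.6 ± 1.26 in shACAT2 cells (SD over 3 libraries), and NOTCH3 made up 48.6% and 48.4% of that sum. With 1 library left out in turn, NOTCH1 stayed above 0 while NOTCH2 moved between −0.22 and 0.089 and NOTCH3 between −0.092 and 0.038.

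Among the ligands, JAG2 dominated and JAG1 was the lesser. JAG2 (ENSG00000184916) was at 53.0, 47.4 and 47.9 FPKM in the shNC and at 65.7, 49.7 and 40.3 FPKM in the shACAT2 libraries. The shACAT2 libraries spanned the whole shNC range and more, and the log2 fold change was 0.042 (SE 0.18). The exons of JAG2 share 469 bases, 7.33% of their length, with AL512356.1 on the same strand. JAG1 (ENSG00000101384) was at 2.23, 2.23 and 1.86 FPKM in the shNC and at 2.58, 2.48 and 2.98 FPKM in the shACAT2 libraries. Here the groups did not overlap, but the difference was small, with a log2 fold change of 0.24 (SE 0.11) and a ratio of means of 1.27. Of the Delta-like ligands, DLL1 was at 1.28, 1.19 and 1.51 FPKM in the shNC and 2.12, 1.83 and 1.51 FPKM in the shACAT2 libraries, with a log2 fold change of 0.28 (SE 0.13, adjusted p = 0.259 by limma). DLL3 was at most 0.201 FPKM. DLL4, known from sprouting endothelium, was at 0.425, 0.350 and 0.475 FPKM in the shNC and 0.249, 0.139 and 0.056 FPKM in the shACAT2 libraries, and was too low to be tested. In shACAT2-3 the 4 fragments of DLL4 are close to the 3.71 fragments that the background gives. JAG2 made up 92.5% ± 0.271 of the summed ligand FPKM in shNC and 91.3% ± 1.61 in shACAT2 cells (SD over 3 libraries).

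The target gene HES1 (ENSG00000114315, chromosome 3 of GRCh38 from 194136145 to 194138732, plus strand), a repressor that keeps progenitor cells from differentiating, was the second gene of the set with a large difference. It was at 3.52, 3.08 and 2.62 FPKM in the shNC and at 7.92, 6.42 and 5.33 FPKM in the shACAT2 libraries, from 93 to 248 fragments. Every shACAT2 library was above every shNC library. The means were 3.07 ± 0.451 and 6.56 ± 1.30 FPKM (SD over 3 libraries), a ratio of 2.14, and the log2 fold change was 0.88 (SE 0.15), at rank 213 of the genes tested. HEY1 (ENSG00000164683), the HES relative best known from vessels and from many Notch-driven tumours, was at 7.04, 5.57 and 6.01 FPKM in the shNC and at 11.6, 7.93 and 8.21 FPKM in the shACAT2 libraries. The groups did not overlap, with shACAT2-1 standing above the other 2, and the log2 fold change was 0.50 (SE 0.16), at rank 899. Without shACAT2-1 it was 0.34.

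The other HES and HEY genes differed among themselves in direction. HEY2, the closest relative of HEY1 and the third gene with an all-higher pattern, was at 4.74, 3.56 and 3.81 FPKM in the shNC and at 7.86, 6.89 and 5.67 FPKM in the shACAT2 libraries. Its log2 fold change was 0.63 (SE 0.14, adjusted p = 0.0536 by limma), just short of the threshold. HEY2 passed in 6 of 14 alternatives, the replicate numbers as a block among them (limma adjusted p = 0.0259). Only 1 of these 6 was a fit with 1 library left out. HEYL, a related repressor, was at 1.41, 1.10 and 1.30 FPKM in the shNC and at 0.810, 0.740 and 0.910 FPKM in the shACAT2 libraries. Here the knockdown libraries were the lower ones, without overlap, with a log2 fold change of −0.32 (SE 0.13, adjusted p = 0.203 by limma). HEYL reached the limit of 1 FPKM for testing only in shNC cells (mean 1.27 FPKM, against 0.820 in shACAT2 cells). The filter thus favours the lower direction for HEYL. HES4 and HES6 had the highest levels of the group, at 31.3 ± 4.90 and 17.2 ± 1.37 FPKM in shNC cells (SD over 3 libraries). In shACAT2-1 to shACAT2-3 HES4 was at 55.2, 34.3 and 23.2 FPKM and HES6 at 34.5, 22.0 and 12.7 FPKM. Both genes were above the shNC libraries in shACAT2-1 and below them in shACAT2-3, and their limma adjusted p were 0.757 for HES4 and 0.613 for HES6. HES7, the gene of the segmentation clock, was at 14.7 ± 1.37 FPKM in shNC against 10.5 ± 3.59 in shACAT2 cells (SD over 3 libraries), with a log2 fold change of −0.49 (SE 0.21, adjusted p = 0.219 by limma). NRARP, a direct target that feeds back on the receptor, was at 18.6 ± 1.18 and 14.6 ± 3.77 FPKM (SD over 3 libraries), with a log2 fold change of −0.36 (SE 0.18, adjusted p = 0.276 by limma). HES2 was at 0.725, 0.719 and 0.762 FPKM in the shNC and at 0.548, 0.601 and 0.382 FPKM in the shACAT2 libraries, lower in all 3 without overlap. HES5 was at 0 in 5 of 6 libraries, and neither of these low genes was tested.

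**Figure D2:**
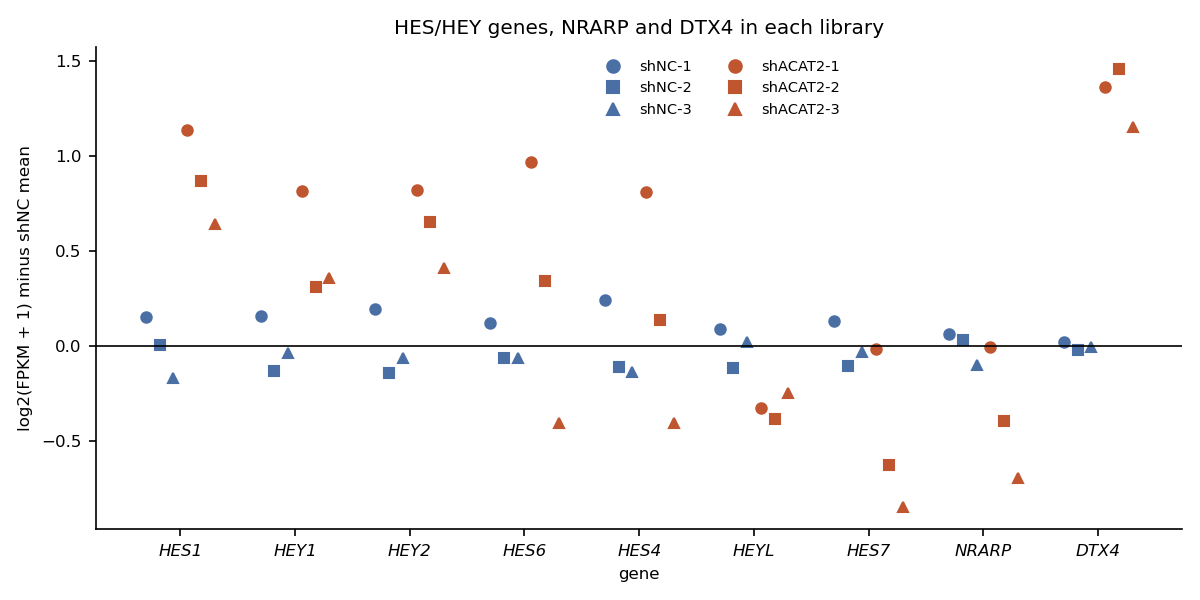
Difference of log2(FPKM + 1) from the gene's own shNC mean (vertical axis) for the 7 HES/HEY genes tested, NRARP and DTX4, with 1 point per library, shNC in blue and shACAT2 in orange. For HES1, HEY1, HEY2 and DTX4 the 3 shACAT2 points lie above all shNC points, for HEYL they lie below, and for HES4 and HES6 they run from 0.81 and 0.97 in shACAT2-1 to −0.40 in shACAT2-3.

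The HES/HEY genes were not equally high in the 3 knockdown libraries. Of the 7 HES/HEY genes tested, 6 had their highest shACAT2 value in shACAT2-1, as did 6901 of all 13832 genes tested. Of the 7, 5 (71.4%) were ordered shACAT2-1 over shACAT2-2 over shACAT2-3, an order that 34.1% of all genes tested showed. DTX4 did not follow it, with its highest value in shACAT2-2. The same libraries differed by gene length. On the log2 scale, the median deviation from the group mean was 0.10 for the 3458 shortest and −0.086 for the 3458 longest genes tested in shACAT2-1, and −0.071 and 0.058 in shACAT2-3. The part of length and of library quality in the spread of the HES/HEY values was not tested. The summed FPKM of the 9 HES/HEY genes was 133.1, 88.1 and 64.2 in shACAT2-1 to shACAT2-3, on both sides of the shNC range of 72.7 to 89.4. Within that sum HES1 took 3.91% ± 0.339 in shNC and 7.18% ± 1.18 in shACAT2 cells (SD over 3 libraries), a share that was higher in all 3 shACAT2 libraries.

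In the order of levels per length, shNC cells ran from JAG2 over NOTCH3, NOTCH2, NOTCH1 and HEY1 down to HES1, DTX2, JAG1, DTX4 and DTX3. The ranges of neighbouring genes overlapped for HES1 and DTX2, for DTX2 and JAG1 and for JAG1 and DTX4. In shACAT2 cells DTX4 stood at rank 6 in place of rank 9, beside HES1 at rank 7, and the ranges of these neighbours overlapped at means of 6.56 FPKM each. The 5 most abundant genes kept their order, though NOTCH2 and NOTCH1 then overlapped.

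Counted over the set, 2 of the 9 genes tested (DTX4 and HES1) had a limma adjusted p under 0.05 and were higher in shACAT2 cells, and 0 were lower. Over all genes tested, 5.1% passed in either direction (706 genes), 3.3% as higher and 1.81% as lower. Groups that did not overlap were found for 4 of the 9 (DTX4, HES1, HEY1 and JAG1), all higher in shACAT2 cells, against 30.7% of all genes tested. Since the set was selected on this contrast, nothing is read from these counts. The median log2 fold change was 0.075 over the 9 genes and 0.016 over all genes tested. With the replicate numbers as a block the count was 3 of 9, with HEY1 as the third, while 7.67% of all genes passed as higher and 4.81% as lower. HES1 was no longer counted with any 1 of the shNC libraries or shACAT2-2 left out, with no filter, or with shNC-2 and shNC-3 averaged. In these settings the number of all genes passing fell to between 63 and 209. Nothing is read from these counts of chosen genes either.

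**Figure D3:**
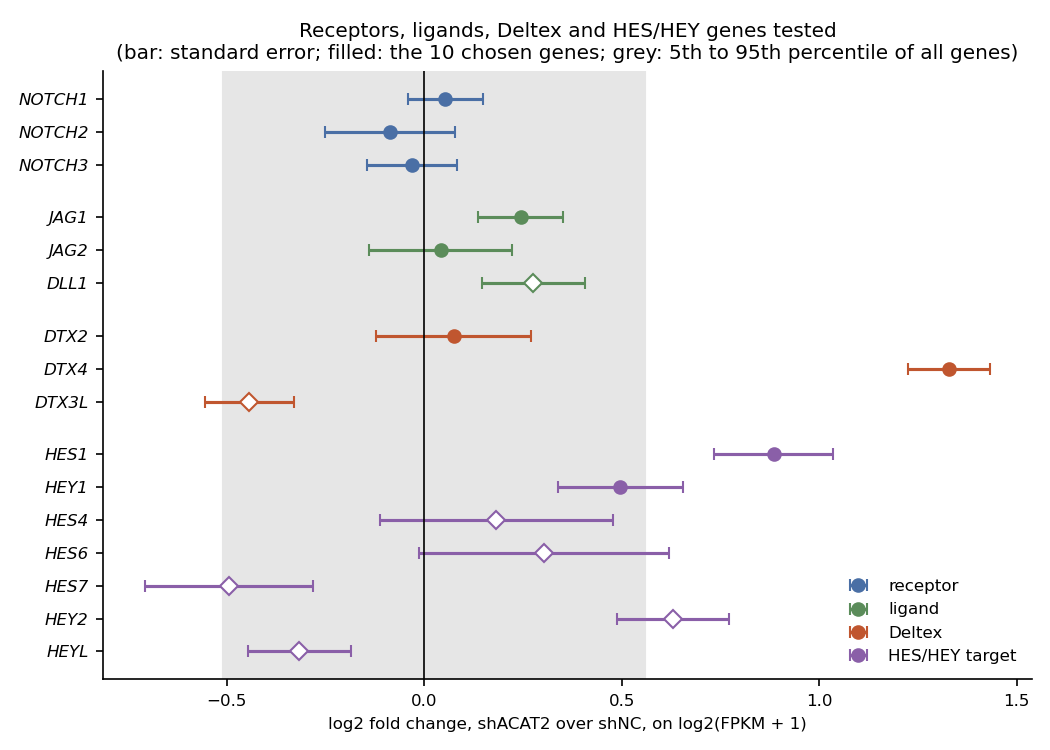
Log2 fold change of shACAT2 over shNC cells on log2(FPKM + 1) for the receptors, canonical ligands, Deltex and HES/HEY genes tested, with error bars of 1 standard error, filled circles for the chosen genes and open diamonds for the others. DTX4, HES1 and HEY2 lie beyond the grey band, which spans the 5th to the 95th percentile of all genes tested (−0.51 to 0.56), and the receptors lie near 0.

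A wider list of 72 Notch pathway genes, grouped by role, gave 59 genes tested. Of these, 3 passed the adjusted p of 0.05 as higher (DTX4, HES1 and POGLUT1) and 0 as lower, beside 3.3% and 1.81% of all genes tested. DTX4 and HES1 are chosen genes, so nothing is read from their part in this count. At an unadjusted p under 0.05 there were 7 higher and 7 lower genes, beside 12.8% and 10.7% of all genes tested. By limma-voom 5 higher and 1 lower gene passed the adjusted p, beside 4.46% and 2.88% of all genes. Of the 59 genes, 50 were not among the chosen ones. Over those 50, 1 passed, beside 5.1% of all genes, 25 were above and 25 below 0, and the median log2 fold change was 0.0050. Their groups did not overlap for 15 of 50, beside 30.7% of all genes, 6 higher and 9 lower. POGLUT1, the O-glucosyltransferase that modifies the extracellular part of Notch receptors, was at 2.29, 2.64 and 2.49 FPKM in the shNC and at 3.49, 3.63 and 3.81 FPKM in the shACAT2 libraries. All 3 knockdown libraries were higher, with a log2 fold change of 0.42 (SE 0.090, adjusted p = 0.0482 by limma), but the adjusted p rose above 0.05 in 10 of 14 alternatives, all 6 with 1 library left out among them.

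Over all genes tested, 7234 log2 fold changes were above and 6598 below 0. By role, the 4 receptor-glycosylating genes tested were all above 0, from 0.046 for POFUT1, the fucosyltransferase of the receptors, to the 0.42 of POGLUT1. Of the 8 genes of receptor cleavage, which include the ADAM proteases and the γ-secretase subunits, 5 were above 0. The 3 genes of ligand endocytosis, which include the Mind bomb ligases, were all below 0. Of the 5 genes of receptor turnover, which include NUMB and ITCH, 3 were above and 2 below 0. The non-canonical ligand DLK2 was at −0.072 (SE 0.13, adjusted p = 0.780 by limma). Of the 8 genes of the nuclear complex, 6 were below 0. Among them RBPJ, its DNA-binding protein, had a mean of 5.74 FPKM in shNC, and of 5.18 FPKM in the knockdown libraries (log2 fold change −0.13, SE 0.20, adjusted p = 0.741 by limma). The 13 co-repressor genes were split into 7 above and 6 below 0. In cleavage, endocytosis, turnover, nuclear complex and co-repressors together 0 genes passed the adjusted p by limma, beside 5.1% of all genes tested. At an unadjusted p under 0.05 there were 1 higher gene of cleavage, 1 lower gene of endocytosis and 2 lower co-repressors. The nuclear complex had 1 higher and 2 lower genes, and 12.8% of all genes were higher and 10.7% lower at that p. By limma-voom 1 gene of the nuclear complex, MAML2, passed the adjusted p as higher. MAML2 reached 1 FPKM only in shACAT2 cells (mean 1.34 FPKM, against 0.659 in shNC cells), so the filter favours that direction. With the replicate numbers as a block, 8 list genes passed, adding HEY1, HEY2 (beside the 7.67% and 4.81% of all genes above) and, named here after their values were seen, the protease ADAM10 (0.41, limma adjusted p = 0.0358) as higher and the coactivator MAML1 (−0.33, limma adjusted p = 0.0398) and the co-repressor SPEN (−0.55, limma adjusted p = 0.0461) as lower.

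**Figure D4:**
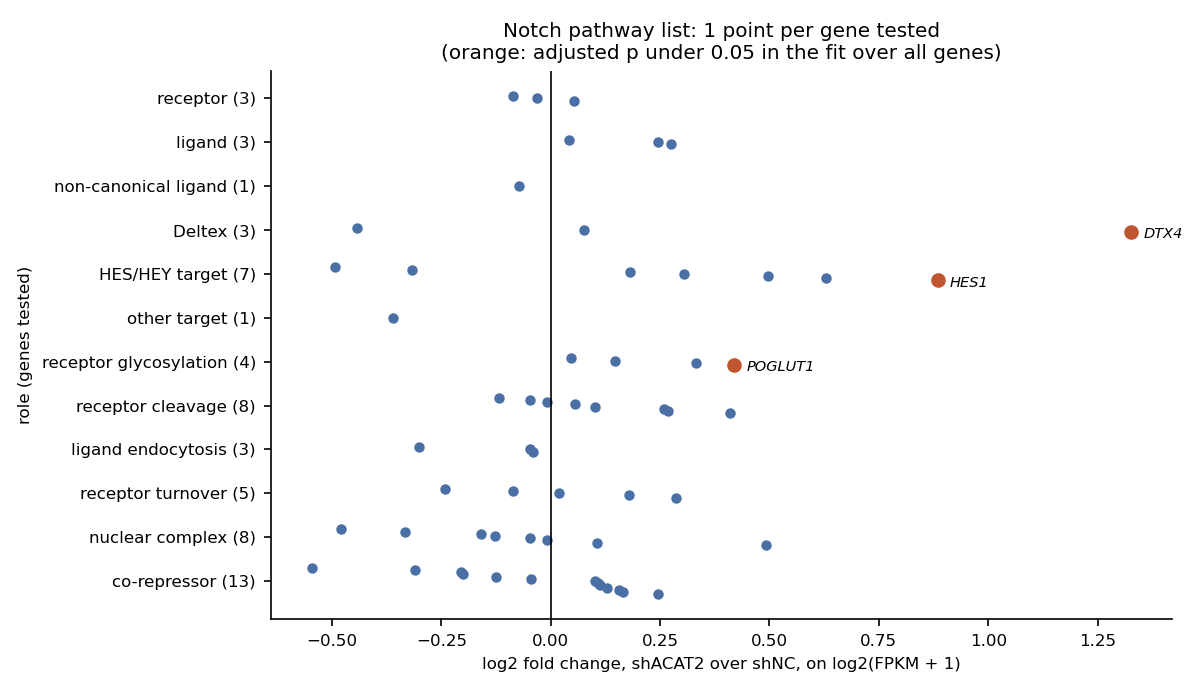
Log2 fold change of shACAT2 over shNC cells on log2(FPKM + 1) for the 59 tested genes of the Notch pathway list, with 1 point per gene in a row per role and orange for the genes with an adjusted p under 0.05. DTX4 at 1.33, HES1 at 0.88 and POGLUT1 at 0.42 are the 3 orange points, and the other genes lie between −0.55 and 0.63. DTX4 and HES1 are chosen genes, so their colour is no test of them.

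The genes whose profile over the 6 libraries was nearest to that of DTX4, by the root mean square distance of log2(FPKM + 1) from each gene's own shNC mean, were CRYM (0.0627), ST13 (0.0751), AC244090.1 (0.0764), SCARA3 (0.0846) and AMOTL2 (0.0864). None of them is on the Notch list, which holds 59 of the 13832 genes tested. Their log2 fold changes were 1.29 to 1.37, and the highest on the list after DTX4 was 0.88, of HES1. Nothing is therefore read from their absence from the list. ST13, a cochaperone of HSP70, was at 27.5 ± 0.628 FPKM in shNC against 69.5 ± 4.27 in shACAT2 cells (SD over 3 libraries). AMOTL2, an angiomotin that binds YAP, was at 6.11 ± 0.121 and 16.4 ± 1.57 FPKM (SD over 3 libraries). CRYM, a thyroid hormone-binding protein, was at 0.475 ± 0.112 and 2.67 ± 0.391 FPKM (SD over 3 libraries), and SCARA3, a scavenger receptor-like protein, at 8.81 ± 0.696 and 23.2 ± 3.51 FPKM (SD over 3 libraries). AC244090.1 was listed at 0 in all shNC libraries and had only 2 or 3 fragments in each shACAT2 library. The 5 genes were picked by likeness over the same 6 libraries, so their differences are a description, with no test.

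Around DTX4 on chromosome 11, 43 genes start within 500 kb, of which 5 were tested. By limma, 0 of the 5 passed the adjusted p of 0.05, beside 5.1% of all genes tested, and 0 passed by limma-voom. At an unadjusted p under 0.05 there was 1, PATL1, lower in shACAT2 cells, as were 10.7% of all genes. FAM111A and FAM111B, proteases of DNA replication next to DTX4, had log2 fold changes of −0.064 (SE 0.16, adjusted p = 0.850 by limma) and −0.21 (SE 0.24, adjusted p = 0.645 by limma). OSBP, an oxysterol-binding lipid carrier, was at 0.020 (SE 0.090, adjusted p = 0.919 by limma), with the sign changing under both other scalings. PATL1, a factor of mRNA decapping, was at −0.32 (SE 0.10, adjusted p = 0.125 by limma), and AP000442.2 at 0.22 (SE 0.20, adjusted p = 0.562 by limma).

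**Figure D5:**
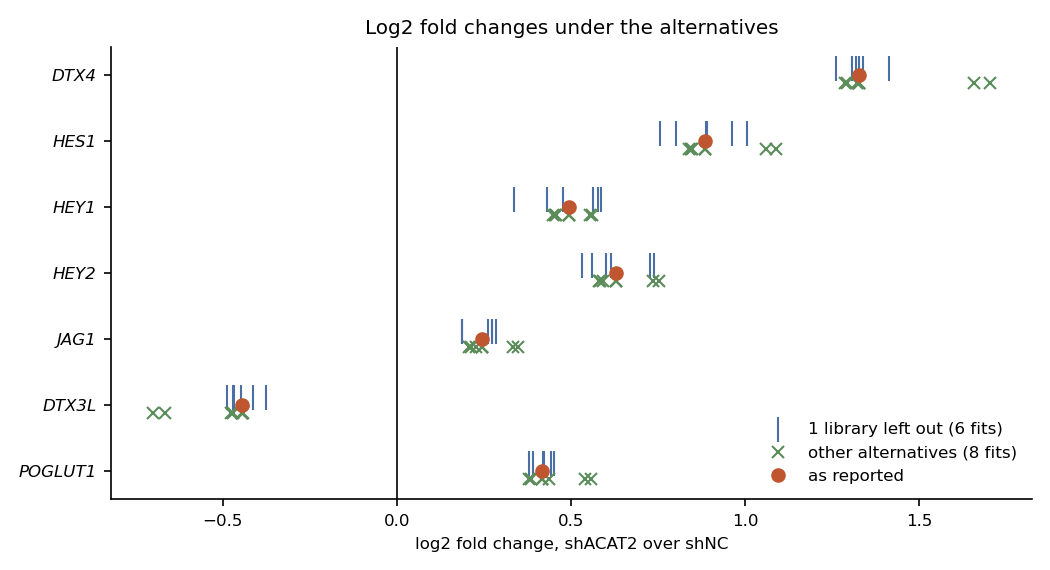
Log2 fold change of shACAT2 over shNC cells for 7 genes as reported (orange circles), with 1 library left out in each of 6 fits (blue bars) and in 8 other alternatives (green crosses). DTX4 stays between 1.26 and 1.70, HES1 between 0.76 and 1.09 and HEY1 between 0.34 and 0.59, and DTX3L stays below 0 throughout.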

How the data were processed

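The 6 libraries (3 shNC, 3 shACAT2; total RNA of HGC-27 cells) were grouped and numbered by their labels. The authors deposited FPKM values for 58735 genes. The submitters' processing notes name HISAT2 2.0.5, featureCounts 1.5.0-p3, DESeq2 1.20.0 and hg38 without their settings, and LC-Bio did the sequencing and analysis. Each FPKM value gave a whole fragment number (100% within 0.001). Per-sample columns left unused numbered 0.

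Differences were tested with limma 3.58.1 with a trend (R 4.3.3) on log2(FPKM + 1) over 13832 genes (mean in either group 1 FPKM or more), with Benjamini-Hochberg adjustment over all of them and a threshold of 0.05. Other steps used numpy 2.4.6 and pandas 2.3.3 under Python 3.11.15. The fit was tried on simulated data for 13832 genes, of which 200 were changed by a log2 fold change of 1.5 in either direction. It recovered 95.5% of these and called 12 unchanged genes. The simulation did not model the closeness of shNC-2 and shNC-3, the differences by gene length or the background of shACAT2-3. The changed genes were drawn only from those with more fragments, and the dispersion was the same for every gene. Recovery of genes with few fragments and of smaller changes was not measured. Annotation was GENCODE release 29, and promoters were from RefSeq.

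The 10 genes and the lists were chosen with earlier results of these data known. Named were the 10 genes, the other receptors, canonical ligands, Deltex and HES/HEY genes, list genes with adjusted p under 0.05, the 5 genes nearest DTX4 in profile, tested genes within 500 kb of it and ACAT2. NRARP, POFUT1, RBPJ, DLK2, NUMB, ITCH, ADAM10, MAML1, MAML2 and SPEN were added after their values were seen.

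Same-numbered libraries deviated together from their group means (correlations of 0.445, 0.126 and 0.171 for numbers 1, 2 and 3). Across numbers, shNC-2 with shACAT2-3 gave 0.198 and shNC-3 with shACAT2-2 gave 0.141. Pairing by number thus stands out for number 1 only, and it is not settled for 2 and 3. The reported fit has no replicate block, which is an alternative.

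Alternatives were upper-quartile and total-fragment scaling, a pseudocount of 0.1, no filter, a minimum of 10 fragments per library, limma-voom on the fragments, the replicate block, shNC-2 and shNC-3 averaged, each library left out in turn, and the study's threshold (absolute log2 fold change above 1 and unadjusted p under 0.05).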

Additional observations from a re-analysis of the deposited data

How the results depend on the processing

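The calls across all genes depended on the libraries, the replicate block and 2 close controls. Of all genes, 706 passed (456 higher, 250 lower) as reported. The count was 209 (149 and 60) with no filter and 83 (63 and 20) with these close libraries, shNC-2 and shNC-3, averaged. At the study's threshold, applied to the reported limma fit, it was 207 (136 and 71), which is not the study's own count. With the replicate block the count was 1727 (1061 and 666). It was 885 (485 and 400) with scaling to total fragments, 1016 (617 and 399) with limma-voom and 1034 (606 and 428) with at least 10 fragments. With 1 library left out it was 63 to 862 (49 to 523 and 14 to 339), with 63, 101, 135 and 129 genes without shNC-3, shNC-2, shNC-1 and shACAT2-2.

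On the Notch list, 3 genes (3 higher, 0 lower) became 1 (1 and 0) with no filter, with the average or at the study's threshold, 4 (3 and 1) with total-fragment scaling, 6 (5 and 1) with limma-voom or at least 10 fragments, 8 (6 and 2) with the replicate block and 1 to 3 (1 to 3 and 0 to 1) with 1 library left out. Of the chosen genes, 2 became 1 with no filter, with the average or at the study's threshold, 3 with the block and 1 to 2 with 1 library left out. Beside these, the block changed the call of HEY2, and of ADAM10, MAML1 and SPEN. HEY2 passed in 6 of 14 alternatives and HES7 in 1, without shACAT2-1. ACAT2 had an adjusted p of 0.0512 without shNC-3.

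Without shACAT2-1, directions reversed for HES4 (−0.13, range with 1 library left out −0.13 to 0.47), HES6 (−0.030, range −0.030 to 0.66) and FAM111A (0.052, range −0.19 to 0.052). OSBP reversed at −0.031 with total-fragment and −0.022 with upper-quartile scaling, and at −0.0081 without shACAT2-3 and −0.0028 without shNC-3 (range −0.0081 to 0.047). NOTCH2, NOTCH3, JAG2 and DTX2 lay on both sides of 0 over the alternatives. Scaling moved the median log2 fold change of all genes from 0.016 to −0.021 (upper quartile) and −0.028 (total fragments). The causes were not tested. Genes under 1 FPKM (DTX3, NOTCH4, DLL3, DLL4, DTX1, HES2 and HES5) are limited by depth, and in shACAT2-3 by its background.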
